A study of Mus musculus with 12 samples.

Results

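Of 12 RNA libraries of mouse lymph node CD8+ T cells, 2 stood lowest in both Lyz2, the lysozyme gene of macrophages and granulocytes, and Ccr2, the chemokine receptor gene of inflammatory monocytes. They are the library of circadian time (CT) 10 on day 1 and that of CT2 on day 2, and they are described here against the other 10. Both were picked from these measured values, so every contrast of the 2 with the 10 is a description without a test. What the choice did not use is how the other 10 libraries rank among themselves, and that order carries the tests below.

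CD8+ T cells kill infected or transformed cells after their T cell receptor recognises a peptide on MHC class I, and in a resting lymph node most of them are naive cells in transit. The node also holds B cells, CD4+ T cells, NK cells, dendritic cells that present antigen on MHC class II, macrophages of the sinuses, and stroma and vessels. A preparation enriched for 1 of these cell types usually carries some RNA of the others, and genes such as Csf1r, the receptor for the macrophage growth factor, Pax5 of B cells or Ncr1 of NK cells, which a resting CD8+ T cell lacks or scarcely transcribes, show how much.

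All 12 samples came from male C57BL/6J mice aged 8 weeks that were kept in constant darkness, where rhythms run on the internal clock, and polyA RNA was sequenced. The labels name no allele, transgene or agent, and the samples differ in circadian time (2, 6, 10, 14, 18 or 22 h) and in day of collection (1 or 2), with 1 library for each combination. The labels do not give the number of mice behind a sample or the way the cells were sorted, so a p-value here reflects the spread among these libraries, which may be partly technical. The libraries held 24689964 to 33497078 counts on genes, with 28628059 in CT10 day 1 and 26893486 in CT2 day 2. Values are CPM, which is counts scaled to library size, with TMM factors.

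Lyz2 had 165 CPM in CT10 day 1 and 165 CPM in CT2 day 2, against 249.7 to 722 CPM (median 445) in the other 10. Ccr2 had 45.9 CPM in CT10 day 1 and 50.1 CPM in CT2 day 2, against 69.8 to 187 CPM (median 113) in the other 10. Just outside the choice were CT6 day 1 for Lyz2, with 249.7 CPM, and CT10 day 2 for Ccr2, with 69.8 CPM, and CT22 day 2 was highest for both. The mean log2 CPM of the 2 genes, called the myeloid index here, was 6.44 in CT10 day 1 and 6.51 in CT2 day 2, against 7.12 to 8.52 in the other 10. Lyz2 lies at chr10:117277331-117282321 and Ccr2 at chr9:124101950-124113557 (GRCm38). Lyz2 has a near-identical neighbour, Lyz1, and its counts are uncertain where the copies share reads.

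The name purest CD8 libraries held by the marker sums of some cell types and not of others. Summed markers of monocytes and macrophages, neutrophils, conventional dendritic cells, NK cells and CD4+ T cells were lower in both libraries than in any of the other 10. The B cell sum was 317 CPM in CT10 day 1 and 228 CPM in CT2 day 2, against 277 to 447 CPM (median 371) in the other 10, so that of CT10 day 1 lay within their range. The sums for stroma and endothelium (183 and 178 CPM in the 2, against 151 to 221 CPM) and for plasmacytoid dendritic cells (137 and 137 CPM in the 2, against 125 to 168 CPM) also lay within it. Pecam1, which naive T cells also express, made up most of the first sum in the 2 libraries, and Pacsin1 most of the second. These sums therefore say little of the other members. The median log2 difference was -1.09 for the stroma and endothelium list and -0.38 for the plasmacytoid list. Pecam1 and Pacsin1 were both higher in the 2 libraries than in all of the other 10. Pacsin1 had 89.1 and 84.8 CPM, against 61.5 to 77.9 CPM. Siglech, another plasmacytoid marker, was lower in both, with 39.9 and 44.96 CPM, against 49.9 to 84.02 CPM. The pair is called by its rule, the 2 libraries lowest in Lyz2 and Ccr2, because of the B cell sum. The CD8 and T cell receptor sum was 8221 CPM in CT10 day 1 and 8660 CPM in CT2 day 2, against 7006 to 8204 CPM (median 7750) in the other 10, so both were higher.

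**Figure D1:**
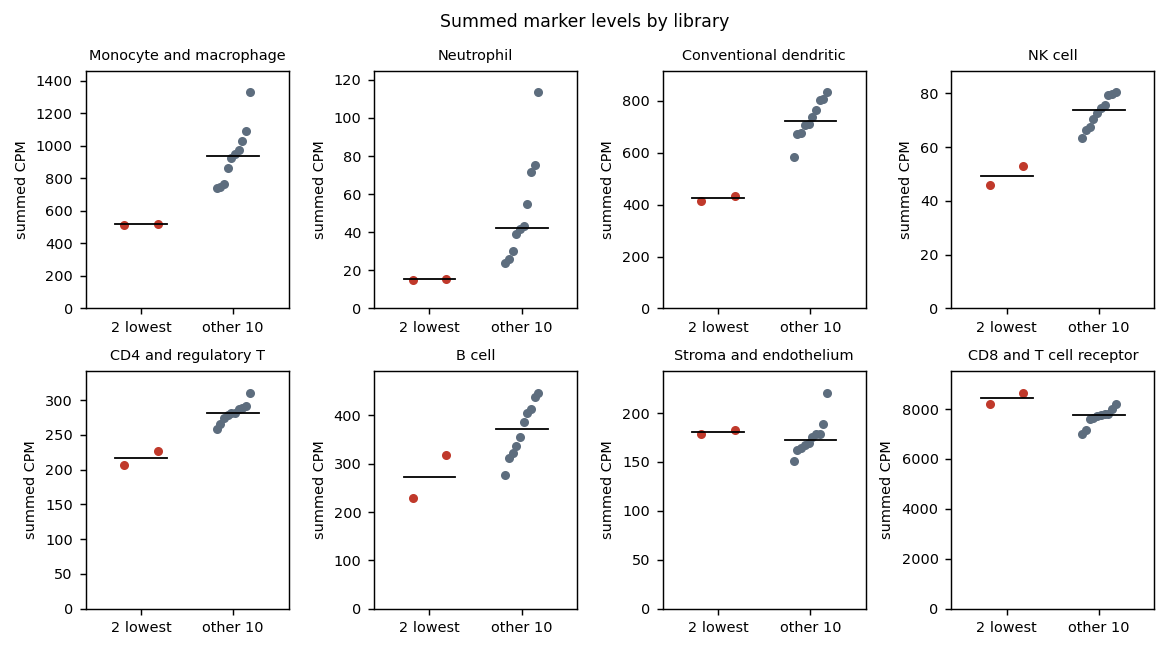
Summed CPM of 8 marker lists, with 1 point per library (red, CT10 day 1 and CT2 day 2; grey, the other 10) and a bar at each median. Points within a group are sorted by value. The 2 libraries lie below all 10 for monocyte and macrophage, neutrophil, conventional dendritic, NK cell and CD4 markers, overlap them for B cell and stroma markers, and lie above them for the CD8 and T cell receptor list.

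Several libraries stood apart in ways that touch these comparisons. In a principal component analysis of 10153 genes, the first component held 42.4% of the variance and had CT10 day 1 and CT2 day 2 at one end and CT22 day 2 at the other. CT2 day 1 stood alone on the second component (14.1%), and the 2 CT14 libraries shared an end of the third (13.5%). The CT2 libraries of day 2 and day 1 differed most of the 6 same-time pairs, with 35.9 for the chi-square per degree of freedom, against 2.87 to 9.59 for the other times. CT10 day 1 and CT2 day 2 differed by 7.63 on this scale, which is more than counting noise, though they come from different times and days.

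Across the transcriptome, 1674 of 16394 tested genes (10.2%) were lower in both libraries than in all of the other 10, and 1217 (7.42%) were higher in both than in all of them. Since the split was made on values of these libraries, nothing is read from those shares. They are the shares to set beside the counts of list members outside the 10 given below. The sizes differed between directions. The lower genes had a median log2 difference of -0.72 (mean of the 2 over mean of the 10) and 501 of them differed at least 2-fold, while the higher genes had a median of 0.20 and 16 of them differed at least 2-fold. Over all tested genes the median was 0.01. With library size alone as the scaling, the counts were 1787 lower and 836 higher, so the balance between directions depends on the scaling.

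Genes were named here only if lower in both libraries than in all of the other 10, so non-overlap was fixed by the choice. Genes that overlapped the 10 were left out, whatever their deficit. Among the genes kept that averaged at least 5 CPM, the 12 largest deficits were log2 differences from -3.35 to -2.04. Slfn4, a Schlafen family gene induced in activated myeloid cells, had 3.33 CPM in CT10 day 1 and 1.43 CPM in CT2 day 2, against 3.49 to 74.3 CPM (median 12.8) in the other 10. Cd5l, which encodes a protein secreted by tissue macrophages, had 1.06 and 1.84 CPM, against 5.01 to 32.9 CPM (median 10.4). Il1b, the inflammatory cytokine interleukin 1 beta, had 1.88 and 2.33 CPM, against 4.48 to 29.5 CPM (median 10.6). The log2 differences of Slfn4, Cd5l and Il1b were -3.35, -3.17 and -2.57. The other genes of these 12 were Fcgr1, Csf3r, Ifi204, Clec4a1, Ifitm3, Hmox1, Tgfbi, Clec4n and Ighg2b, with log2 differences from -2.57 to -2.04. Ighg2b, the constant region of IgG2b antibodies, had 3.33 and 2.55 CPM, against 4.64 to 56.9 CPM (median 11.8).

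The relation was then tested over the other 10 libraries, whose order among themselves the choice did not use, as a slope on the myeloid index. The index is made of the same 2 genes that set the split. A rise of other myeloid genes with it shows that they vary together and is no independent support for the split. A slope is the log2 change of a gene for each log2 unit of the index, which stands for 1 log2 unit more of Lyz2 and Ccr2. In edgeR (quasi-likelihood test, Benjamini-Hochberg adjustment over all genes), 306 of 16394 genes (1.87%) rose with the index and 4 (0.0244%) fell, 310 in all (1.89%), Lyz2 and Ccr2 not counted. Of the 306, 296 were protein coding. Their slopes ran from 0.18 to 3.75 with a median of 0.86, and 132 had a slope of at least 1.

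CT22 day 2, which had the highest index, carried much of that count, since 128 genes rose without it. The index also differed between times: it was 8.18 and 8.52 at CT22 and 7.85 and 7.99 at CT18 (day 1 and day 2). At CT10 it was 6.44 and 7.12, at CT2 7.97 and 6.51 and at CT6 7.12 and 7.78, so same-time libraries differed too. The relation of the index to time was not tested. With a cosine and sine of 24 h period added to the slope test, 37 genes rose and 5 fell. With the circadian time as a block, which compares the days within the 4 times that kept both libraries, 93 rose and 20 fell. At all 4 of these times the index was higher on day 2, so this block cannot separate the index from the day. Over the 5 libraries of day 1 alone 40 genes rose and 0 fell, and over the 5 of day 2 alone 274 rose and 2 fell. The difference in slope between the days was tested too, and 0 genes (0.00%) passed in edgeR or in DESeq2, with 623 at an unadjusted p under 0.05 and a smallest adjusted p of 0.991 in edgeR.

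Of the 306 genes that rose with the index, 231 (75.5%) were also lower in the 2 libraries than in all of the other 10, and those 231 are 13.8% of the 1674 lower genes. The comparisons share the 10 libraries. Most of the lower genes therefore did not pass the slope test: their median slope was 0.06, against -0.00 over all tested genes.

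Genes of monocytes and macrophages did both. Of the 20 markers, all tested, 18 were lower in the 2 libraries than in all of the other 10, and 17 rose with the index. The median log2 difference was -1.29 (0.01 over all tested genes) and the median slope 0.71. The marker sum was 515 CPM in CT10 day 1 and 519.9 CPM in CT2 day 2, against 740.0 to 1328 CPM (median 937) in the other 10. The 2 libraries thus had nearly the same sum. The number of markers that rose was 10 without CT22 day 2, 2 with the 24 h terms and 4 with the time block.

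Csf1r, the receptor of the growth factor on which macrophages depend (chr18:61100598-61132149, GRCm38), had 27.5 CPM in CT10 day 1 and 24.7 CPM in CT2 day 2, against 45.5 to 115 CPM (median 63.1) in the other 10. Its slope was 0.79 ± 0.10 (SE, n = 10, adjusted p = 0.00038, edgeR). Fcgr1, the high-affinity receptor for IgG, had 2.30 and 1.28 CPM, against 2.49 to 26.0 CPM (median 8.44), with a slope of 2.26 ± 0.22. The 2 libraries lay below the 10 for both receptors. The complement genes C1qa, C1qb and C1qc, made by tissue macrophages, rose by 0.60 ± 0.11, 0.80 ± 0.09 and 0.72 ± 0.13 per unit. Mrc1, the mannose receptor, rose by 0.91 ± 0.13, and Timd4, a receptor for dying cells on resident macrophages, by 0.47 ± 0.11. Ctss, the cathepsin that trims class II invariant chain, had 262 and 276 CPM, against 323 to 437 CPM (median 376), and rose by 0.30 ± 0.05. Ifi30, the thiol reductase of antigen processing, had the smallest slope of the 17, 0.24 ± 0.06.

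The list has 4 exceptions. Cd163, the haemoglobin scavenger receptor, had 0.46 and 0.64 CPM, against 0.15 to 0.73 CPM (median 0.56), so the groups overlap and the level is low throughout. Fn1, fibronectin, had 13.7 CPM in CT10 day 1 and 3.83 CPM in CT2 day 2, against 5.30 to 73.4 CPM (median 32.0), and rose by 2.29 ± 0.35 over the 10. Here only CT2 day 2 lay below the 10. Cx3cr1, the fractalkine receptor, and Ms4a7 had slopes of 0.35 ± 0.08 and 0.61 ± 0.22 and did not pass (adjusted p = 0.0501 and 0.376, edgeR).

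Among genes of at least 5 CPM, Vcan, F13a1 and Msr1 had slopes above 2.5. Vcan, which encodes the proteoglycan versican, had 2.97 CPM in CT10 day 1 and 0.49 CPM in CT2 day 2, against 0.82 to 57.9 CPM (median 11.3), with a slope of 3.75 ± 0.45. F13a1, the A subunit of coagulation factor XIII, had 6.90 and 3.34 CPM, against 3.53 to 62.8 CPM (median 19.6), with a slope of 2.81 ± 0.22. Msr1, a scavenger receptor, had 2.62 and 0.90 CPM, against 1.82 to 25.9 CPM (median 7.67), with a slope of 2.59 ± 0.19. For all 3, CT10 day 1 lay within the range of the 10 and CT2 day 2 below it. Slfn4, Chil3, Hp, Emilin2, Ifi204, Il1b and Csf3r followed with slopes from 1.82 ± 0.20 for Csf3r to 2.87 ± 0.34 for Slfn4.

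**Figure D2:**
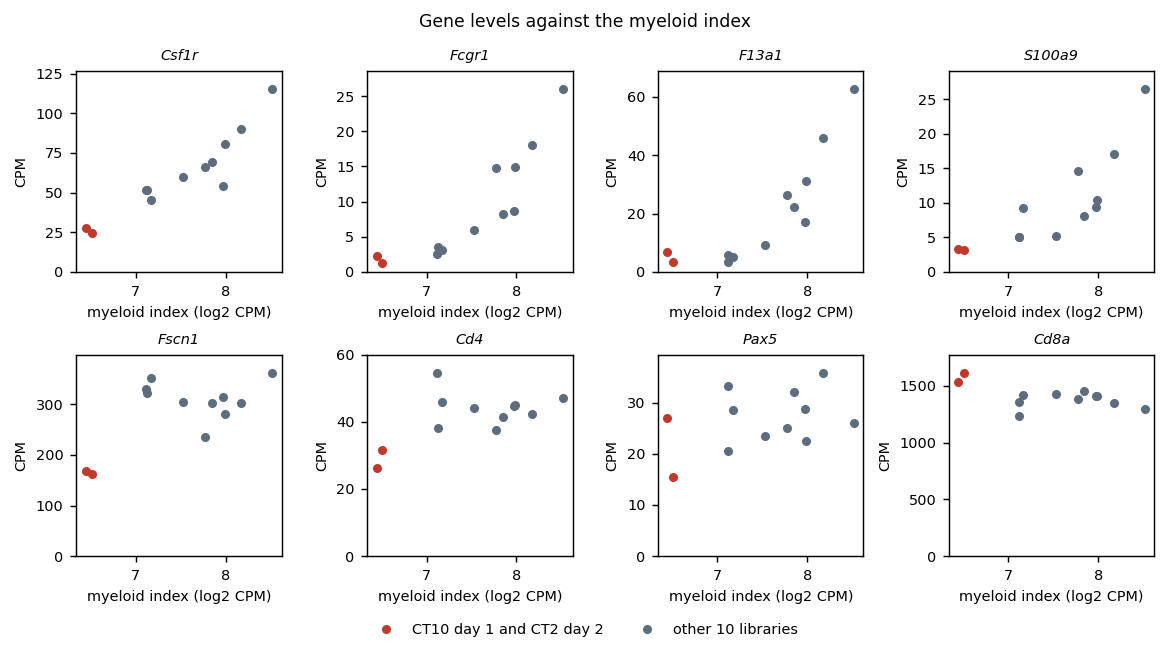
CPM of 8 genes against the myeloid index (mean log2 CPM of Lyz2 and Ccr2), with 1 point per library (red, CT10 day 1 and CT2 day 2; grey, the other 10). Csf1r, Fcgr1, F13a1 and S100a9 climb with the index across the 10, while Fscn1, Cd4, Pax5 and Cd8a did not pass the slope test there. Fscn1 and Cd4 lie lower in the 2 libraries than in all 10, and Cd8a higher.

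Receptors that signal through ITAM adaptors, and their inhibitory partners, moved with the macrophage genes. Of the 10 genes of this list, all 10 were lower in both libraries than in the other 10 and all 10 rose with the index (median log2 difference -1.31, median slope 0.76). Their sum was 121 CPM in CT10 day 1 and 117 CPM in CT2 day 2, against 211 to 422 CPM (median 273) in the other 10. The adaptor Fcer1g, the common gamma chain of Fc receptors, had 15.6 and 16.2 CPM, against 24.6 to 54.8 CPM (median 34.0), and rose by 0.74 ± 0.07. Tyrobp, the adaptor DAP12, rose by 0.41 ± 0.08, and the Fc receptor genes Fcgr2b, Fcgr3 and Fcgr4 by 0.75 ± 0.07, 1.04 ± 0.10 and 1.37 ± 0.17. With the 24 h terms 1 of the 10 passed, with the time block 5, and without CT22 day 2, 7.

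Neutrophil genes were divided. Of 11 markers 10 were tested, 4 were lower in both libraries than in all of the other 10, and 6 rose with the index (median log2 difference -1.73, median slope 1.33). S100a8 and S100a9, the calprotectin subunits, rose by 1.27 ± 0.27 and 1.39 ± 0.24, and Csf3r and Cxcr2, the receptors for G-CSF and for neutrophil chemokines, by 1.82 ± 0.20 and 1.70 ± 0.27. The collagenase gene Mmp8 and the gelatinase gene Mmp9 rose by 2.44 ± 0.42 and 1.57 ± 0.23. S100a9 had 3.29 CPM in CT10 day 1 and 3.12 CPM in CT2 day 2, against 5.001 to 26.5 CPM (median 9.32). The secondary granule genes Ngp, Camp and Ltf, which are transcribed by neutrophil precursors, had slopes of -0.79 ± 0.45, -0.18 ± 0.43 and -0.49 ± 0.39, and Retnlg, a resistin-like gene, 0.24 ± 0.26, and none of these passed. Their levels were low, and Ngp had 1.03 and 0.94 CPM, against 0.69 to 5.79 CPM (median 2.86). The number of list members that rose was 1 without CT22 day 2, 1 with the 24 h terms and 2 with the time block. The list's sum was 15.6 and 14.9 CPM in the 2 libraries, against 23.7 to 113 CPM (median 42.3) in the other 10.

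Of 16 complement and lysosome genes, 11 were lower in both libraries than in the other 10 and 5 rose with the index (median log2 difference -0.59, median slope 0.21). C3, the central complement component, rose by 0.83 ± 0.11, the receptor C5ar1 by 2.38 ± 0.31, properdin (Cfp) by 0.52 ± 0.06, Lamp2 by 0.55 ± 0.06 and cathepsin B (Ctsb) by 0.31 ± 0.05. Cathepsin D (Ctsd) and Npc2 had log2 differences of -0.00 and -0.06 and slopes of 0.03 ± 0.05 and 0.03 ± 0.06. With the 24 h terms or the time block 0 of the 16 passed, and without CT22 day 2, 4.

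The promoters of genes that moved together were searched for GAGGAAGT, the letters of a core recognised by the myeloid ETS factor PU.1, on both strands from 250 bases before to 50 bases after the gene start (RefSeq, GRCm38.p6). A gene was counted once, as a match if any of its promoters held the letters, and only genes with a promoter sequence were counted. Matches were 18 of 235 genes that rose with the index (7.66%), 69 of 1264 genes lower in the 2 libraries (5.46%) and 27 of 839 genes higher in them (3.22%). They were 440 of 10731 of all tested genes (4.10%) and 997 of all 27025 genes with a promoter (3.69%). A match is a description of letters and not a site of binding. The promoters of 4 monocyte, neutrophil and macrophage genes with a match are given to show where the letters lie, each 5′ to 3′ on the gene's strand with the match in capitals. It reads GAGGAAGT in F13a1 (chr13:37049164-37049463, minus strand) and in its reverse complement ACTTCCTC in S100a8 (chr3:90668821-90669120, plus strand), C1qc (chr4:136892865-136893164, minus strand) and Ctss (chr3:95526536-95526835, plus strand).
F13a1: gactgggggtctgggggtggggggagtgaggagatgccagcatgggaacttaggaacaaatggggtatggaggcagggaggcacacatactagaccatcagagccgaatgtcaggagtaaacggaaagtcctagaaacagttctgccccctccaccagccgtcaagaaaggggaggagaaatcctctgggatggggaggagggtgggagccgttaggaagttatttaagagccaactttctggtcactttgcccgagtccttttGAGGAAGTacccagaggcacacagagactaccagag
S100a8: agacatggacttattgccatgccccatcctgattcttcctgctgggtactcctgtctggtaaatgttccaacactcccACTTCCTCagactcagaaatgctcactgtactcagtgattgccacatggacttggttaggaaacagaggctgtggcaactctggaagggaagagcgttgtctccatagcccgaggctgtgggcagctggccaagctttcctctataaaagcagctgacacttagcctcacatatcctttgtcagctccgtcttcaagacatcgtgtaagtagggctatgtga
C1qc: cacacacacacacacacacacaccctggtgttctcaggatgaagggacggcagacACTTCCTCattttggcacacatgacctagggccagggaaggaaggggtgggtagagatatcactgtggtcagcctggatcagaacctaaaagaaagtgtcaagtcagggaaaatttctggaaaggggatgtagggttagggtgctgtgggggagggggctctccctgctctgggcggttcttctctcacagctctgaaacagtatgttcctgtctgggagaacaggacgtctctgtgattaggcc
Ctss: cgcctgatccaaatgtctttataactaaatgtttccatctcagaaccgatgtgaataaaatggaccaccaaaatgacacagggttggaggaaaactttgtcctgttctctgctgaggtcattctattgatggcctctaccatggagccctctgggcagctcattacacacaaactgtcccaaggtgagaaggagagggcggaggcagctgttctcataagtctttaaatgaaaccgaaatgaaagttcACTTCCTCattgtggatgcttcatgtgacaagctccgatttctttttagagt

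Dendritic cell genes were low in the 2 libraries without following the index among the other 10. Of 13 markers of conventional dendritic cells, 12 were lower in both libraries than in all of the 10, and 0 passed the slope test in either direction (median log2 difference -0.68, median slope -0.11). Their slopes ran from -0.44 ± 0.24 for Ccl17 to 0.08 ± 0.12 for Cd209a. Fscn1, the actin bundler of mature dendritic cells (chr5:142960343-142973185), had 168 CPM in CT10 day 1 and 163 CPM in CT2 day 2, against 235 to 362 CPM (median 310) in the other 10, with a slope of -0.03 ± 0.10. Flt3, the receptor that dendritic cell precursors need, had 41.2 and 35.5 CPM, against 54.3 to 79.0 CPM (median 62.4), with a slope of -0.15 ± 0.09. The 2 libraries lie clear of the 10 for both genes. Xcr1 and Clec9a, of the cross-presenting subset, had log2 differences of -0.46 and -0.48, and Ccl22 and Il12b, products of mature cells, -0.61 and -0.84. The list's sum was 434 CPM in CT10 day 1 and 413 CPM in CT2 day 2, against 583 to 833 CPM (median 723) in the other 10.

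MHC class II genes, expressed by dendritic cells, B cells and macrophages, showed the same pair of results. Of 10 genes, 7 were lower in both libraries than in the other 10 and 0 passed the slope test (median log2 difference -0.58, median slope -0.03). Cd74, the invariant chain, had 612 CPM in CT10 day 1 and 547 CPM in CT2 day 2, against 799.9 to 934 CPM (median 872), with a slope of -0.01 ± 0.06. H2-Aa, H2-Ab1 and H2-Eb1, which encode the peptide-binding chains, had log2 differences of -0.67, -0.57 and -0.64. H2-Oa and H2-Ob, the chains of the DM inhibitor, had log2 differences of 0.07 and 0.06 and did not separate the groups.

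NK cell receptors were lower in the 2 libraries as well. Of 9 markers, 7 were lower in both than in all of the other 10 and 0 passed the slope test (median log2 difference -0.55, median slope 0.03). Ncr1, the activating receptor NKp46, had 5.91 CPM in CT10 day 1 and 8.22 CPM in CT2 day 2, against 10.5 to 13.5 CPM (median 12.0), with a slope of 0.03 ± 0.09. The other members ran from a log2 difference of -0.97 for Klra4 to -0.38 for Klra7, and counts of the Klra genes, which are close copies, are uncertain where they share reads. The sum was 45.8 and 53.0 CPM in the 2 libraries, against 63.5 to 80.3 CPM (median 73.6).

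Helper and regulatory T cell genes followed the same form. Of 9 markers 6 were lower in both libraries than in the other 10, and 0 passed the slope test (median log2 difference -0.52, median slope -0.04). Cd4 had 26.4 CPM in CT10 day 1 and 31.5 CPM in CT2 day 2, against 37.4 to 54.6 CPM (median 44.4), with a slope of -0.04 ± 0.09. Zbtb7b, the factor that fixes the CD4 lineage, had a log2 difference of -0.81, and Foxp3, the factor of regulatory T cells, -0.62. Cd40lg, Izumo1r and Ikzf2, with log2 differences of -0.12, -0.10 and -0.31, overlapped between the groups. The sum was 206 and 227 CPM in the 2 libraries, against 259 to 311 CPM (median 281). Of 8 gamma delta T cell markers 2 were lower in both libraries (Trdv4 and Tcrg-C2), against 10.2% of all tested genes. The gamma delta list had a median log2 difference of -0.23 and a median slope of -0.07, and 0 passed the slope test.

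B cell genes separated the 2 libraries from each other. Of 15 markers 2 (Fcrla and Spib) were lower in both than in all of the other 10 (10.2% of all tested genes were lower). In the slope test 0 of the 15 passed (median log2 difference -0.48, median slope 0.04). Pax5, the factor of B cell identity, had 27.0 CPM in CT10 day 1 and 15.4 CPM in CT2 day 2, against 20.5 to 35.8 CPM (median 27.3). Ebf1, a factor that specifies the lineage, had 6.69 and 3.42 CPM, against 5.16 to 8.92 CPM (median 7.18). In both genes CT10 day 1 sat within the 10 and CT2 day 2 below them. Compared with the library of the same circadian time, 3 of the 15 were lower in CT10 day 1 than in CT10 day 2, which had the lowest B cell sum of the 10, and 15 of the 15 were lower in CT2 day 2 than in CT2 day 1. The medians of those log2 differences were 0.27 and -0.82. Plasma cell markers had 1 of 4 tested members, Mzb1, below all 10, a median log2 difference of -0.67 and a median slope of -0.31. Jchain, the joining chain of secreted antibodies, ranged most among them, with 6.23 and 3.46 CPM in the 2, against 3.94 to 29.7 CPM (median 9.05).

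**Figure D3:**
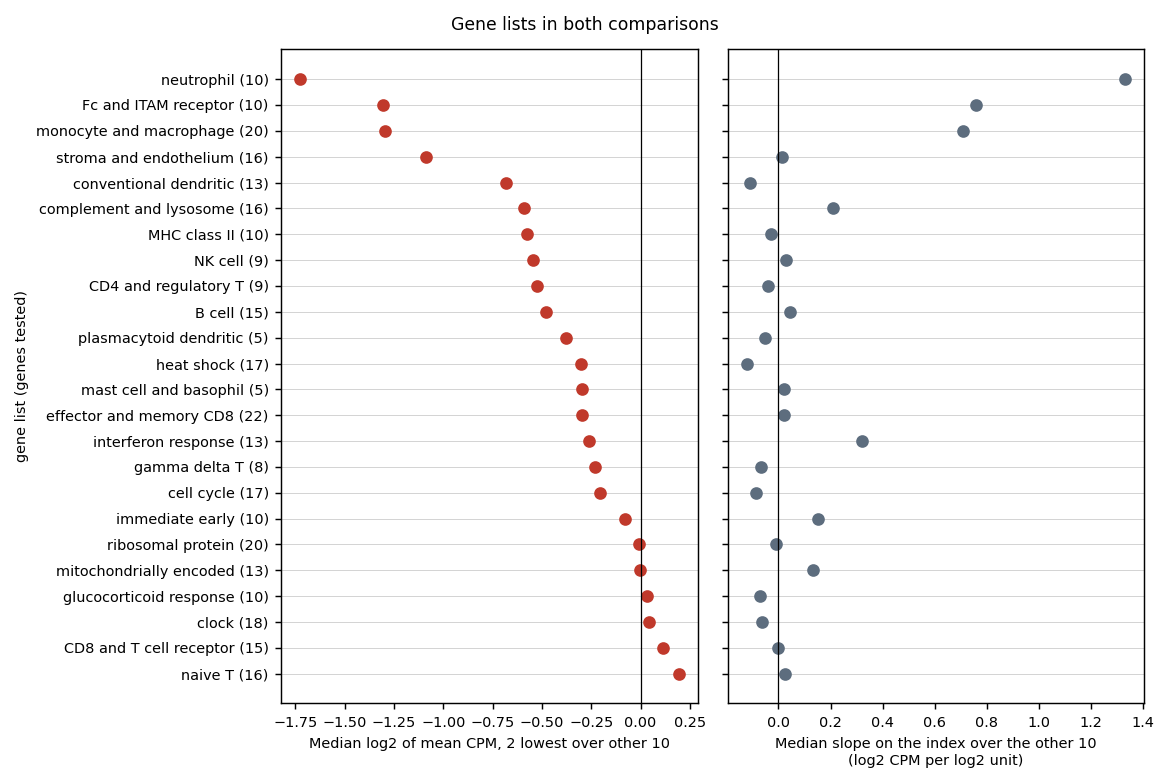
Each row is a gene list with the number of genes tested. Left, the median over its genes of the log2 ratio of mean CPM, the 2 libraries lowest in Lyz2 and Ccr2 over the other 10. Right, the median slope on the myeloid index over the other 10 libraries. Neutrophil, Fc and ITAM receptor and monocyte and macrophage genes have medians of at most -1.29 on the left and at least 0.71 on the right. Conventional dendritic, MHC class II, NK cell and CD4 lists have medians from -0.68 to -0.52 on the left and from -0.11 to 0.03 on the right.

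Stroma and endothelium gave a mixed picture. Of 16 tested markers of 18, 6 were lower in both libraries than in the other 10 (Cdh5, Col1a2, Col3a1, Lyve1, Kdr and Sparc), 1 was higher (Pecam1) and 0 passed the slope test (median log2 difference -1.09, median slope 0.01). Kdr, the VEGF receptor of endothelium, had 3.998 CPM in CT10 day 1 and 2.82 CPM in CT2 day 2, against 5.26 to 10.9 CPM (median 6.62). Pecam1, which naive T cells also express, had 167 and 160.2 CPM, against 129 to 158 CPM (median 139), and makes up most of the list's sum. Among plasmacytoid dendritic cell markers Siglech was lower in both (log2 difference -0.50) and Pacsin1 higher (0.33). None of 5 mast cell and basophil or 3 eosinophil markers tested lay outside the 10 in both libraries, their median log2 differences were -0.30 and -0.80, and their slopes did not pass. Of 8 red cell and platelet markers 2 could be tested, of which Itga2b was above the 10 (log2 difference 0.30), and 0 of 6 adipocyte markers could be tested.

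Since bulk RNA was measured, fewer cells of a type and less RNA per cell cannot be told apart in any of these lists.

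Against the library of the same circadian time, the direction held for most lists in both pairs. The median log2 difference of monocyte and macrophage markers was -0.75 for CT10 day 1 over CT10 day 2 and -1.16 for CT2 day 2 over CT2 day 1. For conventional dendritic cells the medians were -0.73 and -0.62, for NK cells -0.74 and -0.65, for CD4+ T cells -0.43 and -0.30, and for the ITAM list -0.86 and -1.33. Over all tested genes they were 0.01 and -0.00. All 9 NK markers were lower in CT10 day 1 than in CT10 day 2, and all 9 were lower in CT2 day 2 than in CT2 day 1. In CPM, dendritic and NK markers thus differed by about as much in the CT10 pair as in the CT2 pair. With RSEM's TPM in place of CPM, the CT10 and CT2 medians were -0.76 and -0.42 for NK cells. They were -0.64 and -0.50 for conventional dendritic cells and -0.49 and -0.10 for CD4+ T cells. Each pair is 1 library against 1 library and carries no test.

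Of 15 CD8 and T cell receptor genes 0 were lower in both than in the other 10 and 2 were higher, Cd8a among them (7.42% of all tested genes were higher), with a median log2 difference of 0.11 and a median slope of -0.00. Cd8a, the CD8 alpha chain (chr6:71373427-71379173), had 1529 CPM in CT10 day 1 and 1613 CPM in CT2 day 2, against 1234 to 1450.4 CPM (median 1396) in the other 10, with a slope of 0.01 ± 0.06. Cd8b1, the beta chain, had 1200.4 and 1274 CPM, against 978 to 1282 CPM (median 1084), so the groups overlap at 1 library, CT2 day 1. Of the members within the range of the 10, Cd28 had the smallest log2 difference, 0.05, and Skap1 had 0.16. None of the 15 passed the slope test. In the same-time pairs 1 of the 15 was lower in CT10 day 1 than in CT10 day 2, and 6 of the 15 were lower in CT2 day 2 than in CT2 day 1.

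Among genes of naive and recirculating T cells, of 16 genes 5 were higher in both libraries than in the other 10 and 0 were lower. Of all tested genes 7.42% were higher and 10.2% lower. The naive T list had a median log2 difference of 0.19 and a median slope of 0.03, and none of its genes passed the slope test. Their sum was 8235 CPM in CT10 day 1 and 8170.1 CPM in CT2 day 2, against 6583 to 7951 CPM in the other 10. Tcf7, the factor TCF1 of naive and stem-like T cells, had 1245 CPM in CT10 day 1 and 1286 CPM in CT2 day 2, against 987 to 1217 CPM (median 1069.6). Satb1, a chromatin organiser of T cells, had 538 and 545 CPM, against 428 to 513 CPM (median 473), and Foxp1, a quiescence factor, 297 and 286 CPM, against 223 to 278 CPM (median 256). These 3 and Actn1 and Txk are the 5 that cleared the range of the 10, by log2 differences of 0.17 to 0.25. Klf2, which drives S1pr1 and so egress from the node, had 312 and 357 CPM, against 253 to 331 CPM (median 263). For Klf2 the groups overlap.

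Effector and memory genes were divided. Of 22 genes 9 were lower in both libraries than in the other 10, 0 were higher, and 1, Zeb2, rose with the index (median log2 difference -0.30, median slope 0.02). The list's sum was 1817 CPM in CT10 day 1 and 1986 CPM in CT2 day 2, against 2026 to 2333 CPM in the other 10. Gzmb, granzyme B, had 6.30 CPM in CT10 day 1 and 10.9 CPM in CT2 day 2, against 14.2 to 26.4 CPM (median 18.7), and Gzma had 13.4 and 19.2 CPM, against 26.4 to 43.4 CPM (median 33.0). Klrg1, an inhibitory receptor of terminal effector and NK cells, had 1.52 and 2.52 CPM, against 3.22 to 6.48 CPM (median 4.82). Zeb2, a repressor used by terminal effector cells and also by monocytes and dendritic cells, had 11.9 and 15.8 CPM, against 22.0 to 50.7 CPM (median 28.6), with a slope of 0.71 ± 0.09, a call that was lost with the 24 h terms, with the time block and on day 1 alone. The other 5 lower genes were Ccl5, Klrk1, Fasl, S1pr5 and Cd44. Eomes, Tbx21, Il2rb, Cxcr3, Prf1, Klrd1 and Nkg7, which memory-phenotype CD8+ T cells and NK cells share, had log2 differences from -0.13 to 0.11. The other members not lower in both were Ifng (-0.43), Ccl4 (-0.41), Gzmm (-0.25), Ly6c2 (-0.21), Id2 (-0.19) and Gzmk (0.49). The 9 lower genes were low in the same 2 libraries as the NK markers, whose sums are given above, and the part of NK cells in them was not tested.

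The next genes were named only if higher in both libraries than in all of the other 10, and they differed by little. Among such genes of at least 5 CPM, the 12 largest log2 differences ran from 0.42 to 0.52. None of the 12 passed the slope test. BC106179, a noncoding transcript, had 12.4 CPM in CT10 day 1 and 11.8 CPM in CT2 day 2, against 6.34 to 11.1 CPM (median 8.19). Sv2a, a synaptic vesicle glycoprotein, had 11.1 and 9.54 CPM, against 6.36 to 8.80 CPM (median 7.21). Ptger1, a receptor of prostaglandin E2, had 10.2 and 11.5 CPM, against 6.27 to 8.88 CPM (median 7.81). The others were Cep83os, Sorcs2, Lca5, Adgrb2, Lrrc75b, Prrt1, Wscd2, AI480526 and Hmgb1-ps8, none of them a gene of T cell function in the lists used here. The pseudogene Hmgb1-ps8 is uncertain where it shares reads with its parent gene.

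By annotated type, 75 of 501 antisense genes (15.0%), 47 of 427 lincRNAs (11.0%), 25 of 234 processed transcripts (10.7%) and 984 of 12750 protein-coding genes (7.72%) were higher in both libraries than in the other 10. Lower in both were 10 antisense genes (2.00%), 14 lincRNAs (3.28%), 6 processed transcripts (2.56%) and 1580 protein-coding genes (12.4%). The 2 libraries also had the most reads on the strand opposite to annotated genes. These antisense counts came to 6.84% of the sense counts in CT10 day 1 and 7.22% in CT2 day 2, against 5.73% to 6.64% in the other 10. Their part in the higher noncoding genes was not tested. Over the 10 the antisense share had no clear relation to the myeloid index (Pearson r = -0.29, p = 0.418; Spearman rho = -0.24, p = 0.514; two-sided permutation tests with 100000 permutations, n = 10, 1 relation tested). Without CT22 day 2 and CT6 day 1, farthest from the median index, r was -0.65 over 8 libraries (p = 0.0760, two-sided permutation test). No correlation is given for each day alone, which holds 5 libraries.

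**Figure D4:**
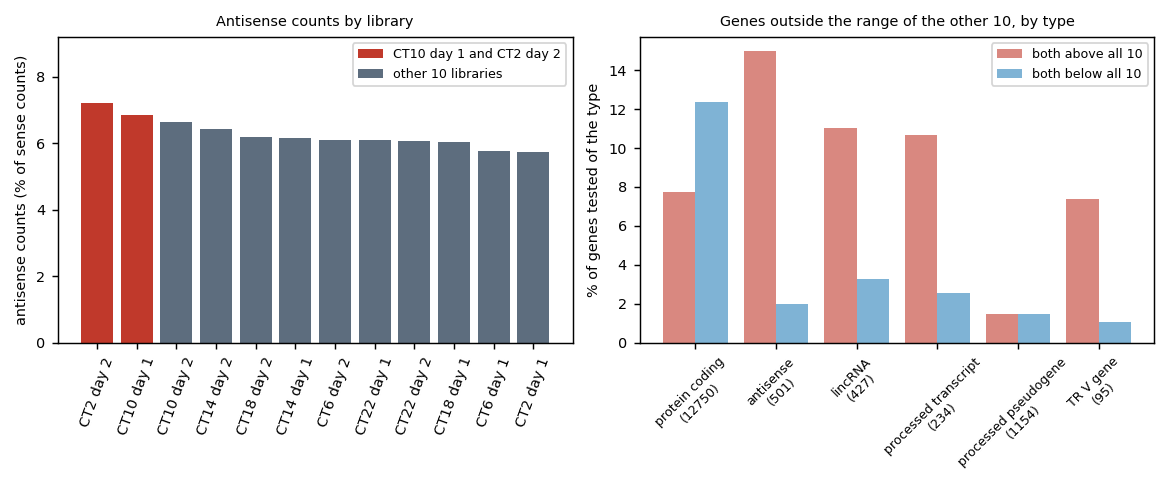
Left, counts on the opposite strand of genes as a percentage of the counts on their own strand, for each library (red, CT10 day 1 and CT2 day 2; grey, the other 10). Right, the percentage of tested genes of each annotated type, with their number in brackets, that were higher (red) or lower (blue) in both libraries than in all of the other 10. The 2 red bars, at 7.22% and 6.84%, are above the 10, and antisense genes have 15.0% higher and 2.00% lower.

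Genes of cell division were lower in the 2 libraries in part. Of 17 cell cycle genes 6 were lower in both than in the other 10 (10.2% of all tested genes were lower). In the slope test 0 passed (median log2 difference -0.20, median slope -0.09). Mki67, the proliferation antigen, had 129.8 CPM in CT10 day 1 and 133 CPM in CT2 day 2, against 152 to 244 CPM (median 177). Top2a, Cdk1, Ccnb2, Birc5 and Rrm2 were the other 5, with log2 differences from -0.63 to -0.37. The 6 helicase genes Mcm2 to Mcm7, which load before S phase, had log2 differences from -0.16 to -0.04 and overlapped, as did Ccnb1, Pcna, Tyms, Cdc20 and Aurkb.

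The interferon response did not separate the groups. Of 13 genes 0 were lower in both libraries than in the other 10 (median log2 difference -0.26). With the index 3 of the 13 rose, against 1.87% of all tested genes, and the median slope was 0.32. Ifit2 rose by 0.39 ± 0.08, Oasl2 by 0.65 ± 0.13 and Rsad2 by 0.59 ± 0.14. Oasl2, a relative of the oligoadenylate synthetases, had 42.7 CPM in CT10 day 1 and 24.6 CPM in CT2 day 2, against 31.5 to 70.9 CPM (median 50.8). Rsad2, the antiviral enzyme viperin, had 20.7 and 10.3 CPM, against 16.5 to 35.3 CPM (median 23.8). CT10 day 1 thus sat within the 10 for both genes and CT2 day 2 below them. In the same-time pairs 1 of the 13 was lower in CT10 day 1 than in CT10 day 2, and 12 of the 13 were lower in CT2 day 2 than in CT2 day 1. Without CT22 day 2, or without both CT14 libraries, 0 of the 13 passed the slope test, 1 passed without CT10 day 2 or without CT14 day 1, and 7 passed with the time block. Within that block the higher index was always on day 2.

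Lists that vary with handling or time of day are described next. None of 17 heat shock genes lay outside the 10 in both libraries (median log2 difference -0.30, median slope -0.12). Even so, 15 of the 17 were lower in CT10 day 1 than in CT10 day 2, and 15 were lower in CT2 day 2 than in CT2 day 1. The inducible chaperones Hspa1a and Hspa1b, near-identical copies whose read assignment is uncertain, had log2 differences of -3.20 and -2.71, and both overlapped the 10. Of 18 clock genes Nfil3 and Bhlhe40 were lower in both (10.2% of all tested genes were lower) and Per1 higher (7.42% were higher). The clock list had a median of 0.04 and a median slope of -0.06. The 20 ribosomal protein genes had a median log2 difference of -0.01 and a median slope of -0.01. The 13 mitochondrially encoded genes had -0.00 and 0.13, with a positive slope in 13 of 13 and 0 passing. Of these 13, 1 was higher in both libraries, near the 7.42% of all tested genes. The glucocorticoid list had 1 of 10 genes higher (Per1, shared with the clock list), near the 7.42% of all tested genes. Its median was 0.03, with a median slope of -0.07. The immediate early list had 1 of 10 lower (Atf3), near the 10.2% of all tested genes. Its median was -0.08, with a median slope of 0.15. The cold-inducible genes Cirbp and Rbm3 overlapped, with a median of 0.35 and a median slope of -0.23.

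The 4 genes that fell with the index were Igkv8-27, Rpsa-ps5, Ighv1-72 and Lhfpl2, and they are named because there are so few. Igkv8-27, an immunoglobulin kappa segment, had 0.35 CPM in CT10 day 1 and 0.15 CPM in CT2 day 2, against 0.26 to 27.9 CPM (median 0.54), with a slope of -4.70 ± 1.08. Its median in the 10 lies close to its lowest value there. Rpsa-ps5, a pseudogene of a ribosomal protein, had 9.59 and 9.80 CPM, against 0.08 to 9.26 CPM (median 0.26), and its counts are uncertain where it shares reads with its parent gene. Ighv1-72 and Lhfpl2 had medians of 0.28 and 0.41 CPM in the 10. No gene of at least 5 CPM passed in this direction, and the 3 nearest were Vwa8, Ttc28 and Nr1d1. Ttc28 had 79.9 and 77.4 CPM, against 54.0 to 69.2 CPM (median 60.3), with a slope of -0.23 ± 0.06.

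The 2 libraries were alike for most genes. Of 9989 genes that averaged 5 CPM or more in them, 7 differed at least 2-fold between CT2 day 2 and CT10 day 1. Rn7sk, the RNA that holds the elongation factor P-TEFb, had 15.3 CPM in CT2 day 2 and 55.1 CPM in CT10 day 1, and Slc15a2, a peptide transporter, had 20.7 and 58.7 CPM. Both values lay within or next to the range of the other 10, which was 12.7 to 85.1 CPM for Rn7sk and 20.9 to 47.2 CPM for Slc15a2, except that CT10 day 1 exceeded it for Slc15a2. Fn1, F13a1, Nfia and Ksr2 were also lower in CT2 day 2, and Grm6 was higher, with 9.58 CPM in CT2 day 2 and 4.53 CPM in CT10 day 1. These 7 were named after their values were seen, and the libraries differ in circadian time and in day.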

How the data were processed

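The members, gene lists, naming rule and tests were chosen with earlier results of these data known. Per the labels, polyA RNA was extracted with TRIzol and RNeasy, and libraries were made with a KAPA HyperPrep kit. The submitters' processing notes name bcl2fastq 2.19, Trimmomatic 0.35, STAR 2.5.1b, RSEM 1.2.28 and build GRCm38; which gene annotation was used is not given in the sources used here. Raw read counts per gene were deposited by the authors in 3 columns that treat strand differently. Column 4 was used, since 77.6% to 80.9% of fragments found no gene in column 3, and 11.4% to 13.9% in column 4. The 4 rows that name no gene held 29.3% to 31.2% of fragments and were left out. The authors also deposited RSEM expected counts, rounded here to whole numbers for an alternative, and TPM values, which add up to a fixed total per library; FPKM was not used. Of 50600 identifiers, 50376 matched a symbol in GENCODE M21, 45737 with the same version, and coordinates are from there.

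edgeR 4.0.16 (R 4.3.3) was run with TMM factors on 16396 genes kept by filterByExpr. The slope test and the slope by day test were quasi-likelihood tests over the 10 libraries, adjusted by Benjamini-Hochberg, with a threshold of 0.05. The myeloid index is the mean log2 CPM (prior count 2) of Lyz2 and Ccr2, which were kept out of counts of calls, leaving 16394 genes. ± after a slope is a standard error. Log2 differences of the 2 against the 10 are of mean CPM without a pseudocount, so they are less certain for genes below 1 CPM. Since index and gene come from the same libraries, an error in the index affects every slope. Alternatives were DESeq2 1.42.0, other scalings, filters, columns, index genes and covariates, and each library left out. The scripts were tested on simulated data.

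Per the labels, a replicate number is a collection day and thus marks libraries of 1 day. A block for the day was an alternative. The day 2 minus day 1 deviations in 10153 genes, compared for the 15 pairs of times, correlated from -0.60 to 0.35 (median 0.08), with 6 of the 15 above 0.1.

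Besides the list members, the naming rule took the 12 lowest and 12 highest log2 differences among genes outside the range of the 10, the 12 steepest slopes each way among passing genes (or, where fewer passed, those of smallest p), the 3 smallest slope p in each pathway list and the 4 smallest interaction p, all but the list members averaging 5 CPM or more, and without predicted genes and unnamed clones. Not every gene chosen this way appears in the text, and some results are not reported here.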

Additional observations from a re-analysis of the deposited data

Results flagged for a closer look

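The list sums were screened for single libraries far from the rest of the other 10, which are not a group of the study. Of 30 lists, 6 had such a library by Dixon's ratio at its 95% critical value, and chance alone marks about 1 in 20. Plasma cell markers summed to 44.3 CPM in CT6 day 1. Red cell and platelet markers summed to 5.52 CPM in CT18 day 2, which is a very low level. The other 4 belong to 1 library, CT2 day 1. Its effector and memory CD8 list summed to 2333 CPM, its ribosomal protein list to 45920.5 CPM and its mitochondrially encoded list to 31645 CPM, each the highest of the 10, and its clock list to 315 CPM, the lowest. CT2 day 1 is the same-time partner of CT2 day 2, so the CT2 pair compares 2 libraries that each stand apart.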

How the results depend on the processing

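The main test called 310 genes, 306 higher and 4 lower with the index. The day as a replicate block gave 290, all higher (0 lower), and DESeq2 gave 369. With time terms, the 24 h cosine and sine gave 42 (37 higher), and the circadian time as a block gave 113 (93 higher, 20 lower). Day 1 only gave 40 (40 higher, 0 lower), day 2 only 276 (274 higher, 2 lower), and all 12 libraries, which bring the choice back in, gave 794 (691 higher, 103 lower). The time terms and single days leave fewer degrees of freedom or samples. Within the time block the higher index of each pair was on day 2, so the index and the day are not separated there. Leaving out each of the 10 libraries gave 128 to 362 in all, 128 to 361 higher and 0 to 11 lower, with the lowest total without CT22 day 2. The small lower count was 1 with library size alone, 12 without a filter, 1 with RSEM expected counts, 12 with the antisense ratio as a covariate (added after the data were seen), 0 with the index from Ccr2 alone, 0 with the index from the monocyte and macrophage list and 11 without both CT14 libraries. The slope by day test gave 0 to 2 genes when each library was left out, 2 of them without CT14 day 1, 1 without CT18 day 2 and 1 without CT22 day 2. The slope of Igkv8-27 turned to 0.0763 with day 2 only (adjusted p = 0.987, edgeR). The cause of these shifts was not tested.

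Genes lower in both libraries than in all of the 10 numbered 1708 to 2984, and higher 1244 to 2931, when each library was left out. The high ends come without CT2 day 2 (2984 lower, 2931 higher), and without CT10 day 1 there were 2557 lower and 2324 higher, since 1 library clears a range more easily than a pair. Median log2 differences of the 13 lists recomputed kept their sign under each alternative, between 0.09 and 0.13 for the CD8 and T cell receptor list and between -1.38 and -1.16 for monocytes and macrophages. With RSEM's TPM, the CT2 pair's median was -0.10 for CD4+ T cells, -0.42 for NK cells and 0.37 for the CD8 and T cell receptor list, against -0.30, -0.65 and 0.10 in CPM (scaling alternatives for the pairs were added after the data were seen). Over all settings, slope calls of single named genes were lost 219 times.

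Depth limits genes below about 1 CPM, such as Cd14, Trem2 and several stroma markers, and counts cover 1 library per time and day. The 2 libraries were picked from the data, their times differ, and the way the cells were sorted is not in the labels.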

Other observations

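Glycam1, a mucin made by high endothelial venules, had 0.50 CPM in CT10 day 1 and 1.77 CPM in CT2 day 2, against 0.73 to 50.1 CPM (median 3.12) in the other 10. Its slope of -2.96 ± 0.83 did not pass (adjusted p = 0.119, edgeR). Jup, the junction protein plakoglobin, had 8.49 CPM in CT10 day 1 and 6.87 CPM in CT2 day 2, against 12.1 to 21.8 CPM (median 13.8), so the groups do not overlap. Jup, Zbtb20, Trav13-1 and Alpk1 had the smallest p-values for a difference in slope between the days, and none passed (smallest adjusted p over all genes 0.991, edgeR). Adora2a, the adenosine receptor that dampens T cell activation, had 26.7 and 26.0 CPM in the 2 libraries, against 27.7 to 35.9 CPM (median 30.3) in the other 10, with a slope of -0.21 ± 0.06 that did not pass (adjusted p = 0.129, edgeR).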
